A study of Homo sapiens with 6 samples.

Results

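The genes described here are 8 components of the FGF and MET receptor systems: the fibroblast growth factor receptors FGFR1, FGFR2, FGFR3 and FGFR4, the ligand FGF2, the FGF-binding protein FGFBP1, and the receptors MET and MST1R (also called RON). They were taken by gene name as a list, and are 8 of the 58825 gene identifiers in the count table. All 8 had enough counts to be tested, among 19081 genes. RNA was sequenced from FaDu, an established squamous carcinoma line of human hypopharynx, in 3 libraries labelled as carrying an shRNA against NSUN2 (shNSUN2) and 3 FaDu libraries labelled as having no shRNA. NSUN2 is an RNA methyltransferase that makes 5-methylcytosine. The control group had no hairpin at all, so loss of NSUN2, the hairpin itself and its delivery cannot be told apart. The labels do not say how many hairpin sequences or clones were used, or whether replicates were separate cultures, so p-values measure the spread between these libraries, which may be technical.

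FGF receptors are tyrosine kinases of the cell surface that bind an FGF together with heparan sulfate, and pass the signal through the adaptor FRS2 to the RAS-ERK cascade. In stratified epithelia, FGFR2 and FGFR3 are the typical receptors, and FGFBP1 is a secreted carrier that frees FGFs such as FGF2 from the matrix. MET is the receptor of hepatocyte growth factor (HGF), a motility and growth signal made mainly by stromal cells, and MST1R is its close relative, which binds macrophage-stimulating protein (encoded by MST1).

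Library totals were 53612358 to 72788971 estimated counts. NSUN2 had 156 to 173 CPM in FaDu and 34.7 to 50.4 CPM in shNSUN2, and its shNSUN2 mean was 25.1% of the FaDu mean. CPM are estimated counts scaled to a common library total, after correction by edgeR's TMM factors. Of 12 squamous epithelial markers all were tested, 8 fell and 1 rose, and their summed level was 5422 to 5486 CPM in FaDu and 3056 to 3458 CPM in shNSUN2. Without any 1 FaDu library or shNSUN2 replicate 1, 5 of the 12 fell. Those fits called 6.76% to 10.4% of all tested genes, against 18.5% with all libraries. Among the shNSUN2 libraries replicate 3 stood apart: its difference from the other two had a Spearman rho of 0.418 with GC content across 19033 genes. Some markers of other tissues were higher in shNSUN2. Of 8 prostate epithelial markers 4 were called higher and 1 lower, with sums of 31.2 to 33.8 CPM in FaDu and 53.8 to 70.4 CPM in shNSUN2, and MSMB was at 0 in FaDu. Of 8 plasma cell markers 3 were called higher, and IGKC was at 0 in FaDu. Their sums of 140 to 169 and 179 to 221 CPM were mostly SDC1, which epithelia express. Of 8 smooth muscle markers 2 were called higher and 1 lower, with sums of 63.3 to 68.6 and 51.7 to 68.5 CPM. ACTG2 and CNN1 were at 0 in FaDu. The 2 called higher were DES, at 186, 27 and 31 counts in shNSUN2 replicates 1, 2 and 3, and ACTG2, at 101, 19 and 24. They were thus highest in replicate 1, and without it 0 smooth muscle markers were called higher and 1 lower. Of 8 endothelial markers 1 was called higher (CDH5) and 1 lower (ERG), with sums of 5.95 to 7.51 and 32.4 to 55.0 CPM. EMCN was at 0 in all libraries, and KDR at 0 in FaDu and 10, 4 and 7 counts in shNSUN2. Of 11 fibroblast markers 1 was called higher, with sums of 10.1 to 10.4 and 7.17 to 13.8 CPM. It was COL1A2, at 0 in FaDu and 38, 17 and 21 counts in shNSUN2 replicates 1, 2 and 3. Without shNSUN2 replicate 1 no fibroblast marker was called. DCN was at 0 in FaDu and 13, 0 and 8 counts in shNSUN2, and POSTN and FAP were at 0 in all libraries. Of 10 leukocyte markers none was called, with sums of 8.49 to 11.1 and 10.5 to 12.5 CPM, and PTPRC was at 0 in all libraries. The part of these markers in the results below was not tested, and in bulk RNA fewer cells of a type and less RNA per cell cannot be told apart.

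The receptor systems did not move as a block. FGFBP1, FGFR4 and MET fell, FGFR3 and MST1R rose, and FGF2, FGFR2 and FGFR1 did not pass the test. The threshold for a call was 0.05 on the p-value of edgeR's quasi-likelihood test, adjusted by Benjamini-Hochberg over all tested genes. By that rule 5 of the 8 were called, 2 higher and 3 lower, where 18.5% of all tested genes were called, 8.54% higher and 9.97% lower. Without FaDu replicate 1, 2 or 3, the members called were 4, 3 and 3, where 7.9%, 6.76% and 6.88% of all genes were called. Without shNSUN2 replicate 1, 2 or 3, they were 5, 4 and 6, where 10.4%, 17.4% and 21.5% were called. In the other 8 settings 4 to 6 members were called, against 10.5% to 25.3% of all genes (18.2% with upper-quartile scaling). The CPM of the groups did not overlap for 7 of the 8, all but FGFR1, where that held for 42.3% of all tested genes. For 2 of the 8 shNSUN2 lay wholly above FaDu and for 5 wholly below, against 20.3% and 22.1% of all tested genes. Within both families the changes were opposite, with FGFR3 up and FGFR4 down, and MST1R up and MET down.

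**Figure D1:**
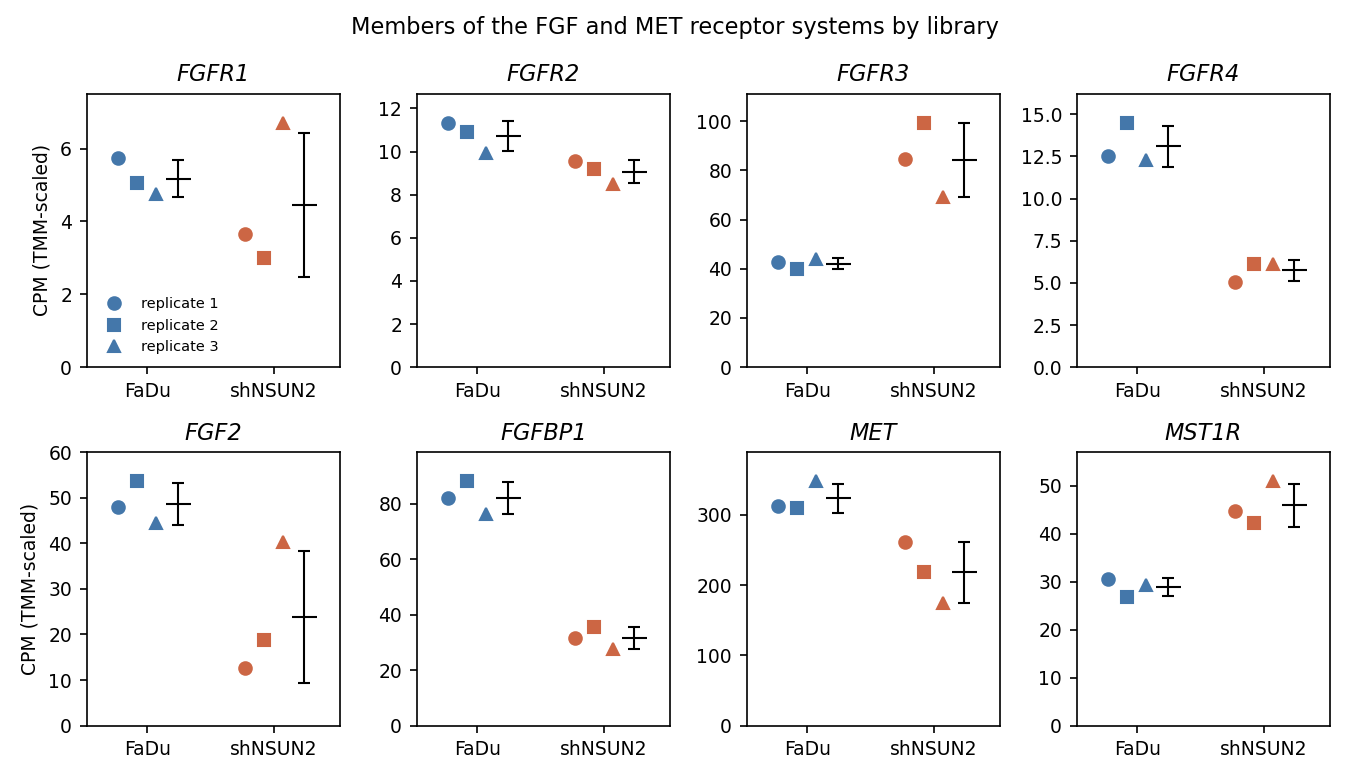
TMM-scaled CPM of the 8 genes in each library, on linear axes from 0, with blue points for FaDu, orange points for shNSUN2 and 1 symbol per replicate number. Black marks show the mean ± SD of 3 libraries. FGFR3 and MST1R lay higher in all shNSUN2 libraries, FGFR4, FGFBP1 and MET lower, and replicate 3 of shNSUN2 stood above the other two for FGFR1 and FGF2.

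FGFR3 was the main FGF receptor in these cells and doubled in shNSUN2. The gene (ENSG00000068078) lies on the forward strand of chromosome 4 from 1793293 to 1808872 in GRCh38. Its level was 42.8, 39.8 and 43.9 CPM in FaDu against 84.5, 99.4 and 69.1 CPM in shNSUN2. All shNSUN2 libraries were above all FaDu libraries, although they also differed more among themselves. The mean went from 42.1 ± 2.12 to 84.3 ± 15.2 CPM (SD, n = 3), a log2 fold change of 1.001 (SE 0.15, edgeR adjusted p = 0.00528). It was called in all 14 alternative settings, including each fit that left 1 library out, with log2 fold changes of 0.87 to 1.13.

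FGFR4, the receptor that pairs with beta-klotho to bind FGF19, went the other way. The gene (ENSG00000160867) lies on the forward strand of chromosome 5 from 177086886 to 177098144. Its level was 12.5, 14.5 and 12.3 CPM in FaDu and 5.02, 6.11 and 6.10 CPM in shNSUN2. The lowest FaDu library was well above the highest shNSUN2 library. The shNSUN2 mean of 5.75 ± 0.625 CPM was 43.9% of the FaDu mean of 13.1 ± 1.21 CPM (SD, n = 3), at a log2 fold change of -1.19 (SE 0.16, edgeR adjusted p = 0.00326). This call also held in all 14 alternative settings, at -1.27 to -1.10.

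The promoters of these 2 receptors are shown because the genes moved in opposite directions, as the 250 bases before the RefSeq gene start (GRCh38.p14, chr4:1793043-1793292 and chr5:177086665-177086914, both on the forward strand, 5′ to 3′). Where RefSeq lists several starts, the most upstream one was taken. Capitals mark matches on either strand to GGGCGG, the core of Sp1 and KLF sites, to GCGNGGGCG, an EGR1-type site, and to CCGGAA, the core of ETS sites.
FGFR3: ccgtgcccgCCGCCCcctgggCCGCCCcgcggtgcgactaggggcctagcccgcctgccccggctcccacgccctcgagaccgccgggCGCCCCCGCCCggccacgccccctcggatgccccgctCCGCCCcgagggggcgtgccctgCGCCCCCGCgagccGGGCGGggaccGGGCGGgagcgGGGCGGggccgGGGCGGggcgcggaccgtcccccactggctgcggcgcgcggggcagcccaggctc
FGFR4: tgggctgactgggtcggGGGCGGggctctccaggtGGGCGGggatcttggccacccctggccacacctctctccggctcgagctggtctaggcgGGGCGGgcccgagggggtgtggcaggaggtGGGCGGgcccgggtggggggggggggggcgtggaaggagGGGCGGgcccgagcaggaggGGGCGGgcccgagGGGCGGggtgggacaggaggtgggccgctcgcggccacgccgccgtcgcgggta
Both windows were rich in G and C, at 86.8% for FGFR3 and 79.6% for FGFR4, against a median of 57.6% over 27305 promoters. GGGCGG occurred 8 times in FGFR3 and 7 times in FGFR4, and 42.2% of all promoters held it at least once. GCGNGGGCG occurred 2 times in FGFR3, one of which shares letters with a GGGCGG match, and was not found in FGFR4 (8.23% of all promoters hold it). CCGGAA was in neither (14.8%). Of 4 further motifs none was found in the windows of the 7 members with a RefSeq promoter. They were the AP-1 motif TGANTCA (held by 6.57% of all promoters), the STAT motif TTCNNNGAA (6.76%), the TEAD motif GGAATG (11.95%) and the TATA box TATAAA (11.2%). A match describes letters and is no evidence of binding.

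The typical epithelial receptor FGFR2 (ENSG00000066468, reverse strand of chromosome 10, 121478334 to 121598458) did not pass the test. It had 11.3, 10.9 and 9.94 CPM in FaDu and 9.55, 9.19 and 8.47 CPM in shNSUN2. The groups lay close together without overlapping. The log2 fold change was -0.24, with a 95% interval of -0.57 to 0.09 (edgeR adjusted p = 0.283), and the test does not show that the level was the same. FGFR1 (ENSG00000077782, reverse strand of chromosome 8, 38400215 to 38468834), the receptor typical of mesenchymal cells, was the lowest of the 4. It had 5.74, 5.05 and 4.76 CPM in FaDu and 3.67, 2.997 and 6.71 CPM in shNSUN2. Replicates 1 and 2 of shNSUN2 were below every FaDu library and replicate 3 above them all. Its log2 fold change of -0.22 had a 95% interval of -0.91 to 0.48 (edgeR adjusted p = 0.665), and was -0.63 without shNSUN2 replicate 3 (adjusted p = 0.0622) and 0.0057 without shNSUN2 replicate 2. Exons of FGFR1 share 138 bases with LETM2 and 156 bases with AC087623.1, both on the other strand, and reads of those stretches cannot be told apart.

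**Figure D2:**
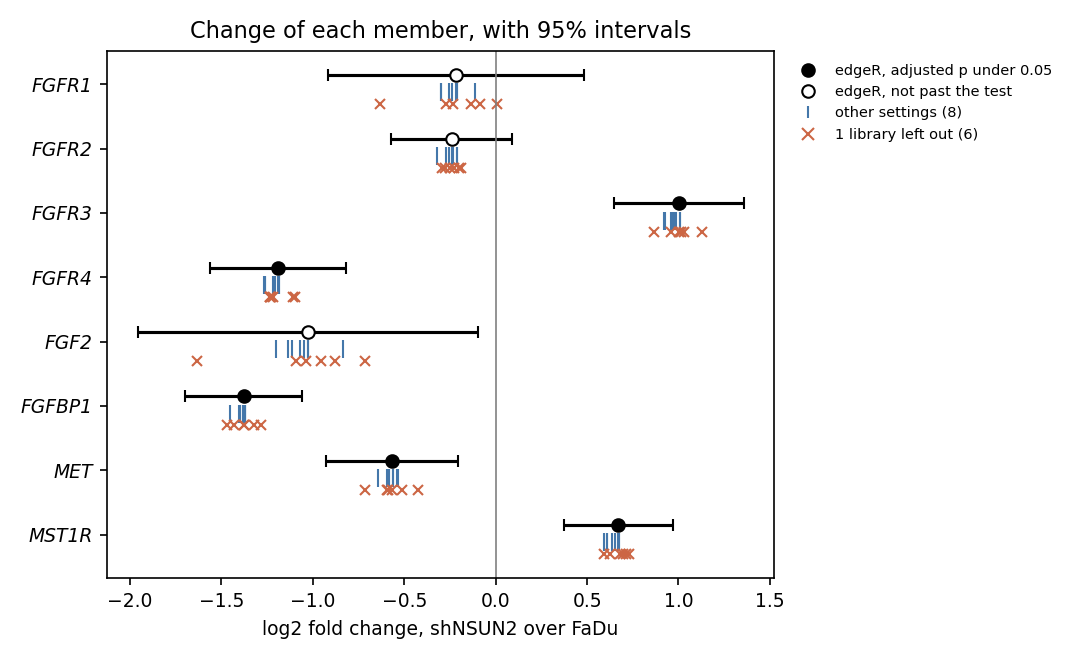
Log2 fold change of each gene, shNSUN2 over FaDu. Circles with bars give the edgeR estimate and its 95% interval (filled where the adjusted p was under 0.05), blue ticks the 8 other settings and orange crosses the 6 fits with 1 library left out. FGFR3, FGFR4 and FGFBP1 kept close to their estimates, whereas FGF2 ranged from -1.63 to -0.72.

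Levels of different genes can be set side by side only per length, so CPM were divided by the kilobases of each gene's merged exons (GENCODE 29). On that scale FGFR3 had 8.69 ± 0.438 CPM per kb in FaDu, FGFR4 2.71 ± 0.251, FGFR2 1.42 ± 0.094 and FGFR1 0.374 ± 0.0365 (SD, n = 3). In shNSUN2 the same receptors had 17.4 ± 3.13, 1.19 ± 0.129, 1.197 ± 0.0723 and 0.322 ± 0.143 CPM per kb. FGFR4 was thus second to FGFR3 in FaDu, and level with FGFR2 in shNSUN2, where the libraries of the 2 genes overlapped. The share of FGFR3 in the sum over the 4 receptors was 66.2%, 63.1% and 68.3% in FaDu and 87.2%, 88.4% and 83.3% in shNSUN2, and that of FGFR4 went from 20.6% ± 2.16 to 6.01% ± 1.19. The summed level was 13.2 ± 0.165 CPM per kb in FaDu and 20.1 ± 3.04 in shNSUN2, and FGFR3 alone of the 4 had the higher mean in shNSUN2. With the longest transcript as the length, the FGFR3 share was 55.9% ± 2.82 and 80.1% ± 3.82, and the order of all 8 genes was the same.

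Ratios within a library do not depend on how libraries are scaled, and 4 were compared. They can still depend on GC content, by which shNSUN2 replicate 3 stood apart. The longest transcripts have 51.3%, 48.8%, 62.0% and 63.6% GC for FGFR1 to FGFR4, 42.4% for MET and 60.1% for MST1R. The part of GC content in the ratios was not tested. The log2 ratio of FGFR3 to FGFR2 counts was 1.92, 1.87 and 2.14 in FaDu and 3.14, 3.43 and 3.03 in shNSUN2. It differed by 1.23, a 2.34-fold shift towards FGFR3 (exact two-sided permutation p = 0.1, the smallest that 3 against 3 libraries allow, 0.133 adjusted over the 4 ratios). The FGFR3 to FGFR4 ratio, chosen after both genes had been seen, went from 1.69 ± 0.203 to 3.86 ± 0.316 (SD, n = 3), a 4.52-fold shift. FGFR1 to FGFR2 was -1.05 ± 0.0654 in FaDu and -1.11 ± 0.680 in shNSUN2 (exact permutation p = 1), with shNSUN2 replicate 3 at -0.34 and the other two at -1.38 and -1.61.

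**Figure D3:**
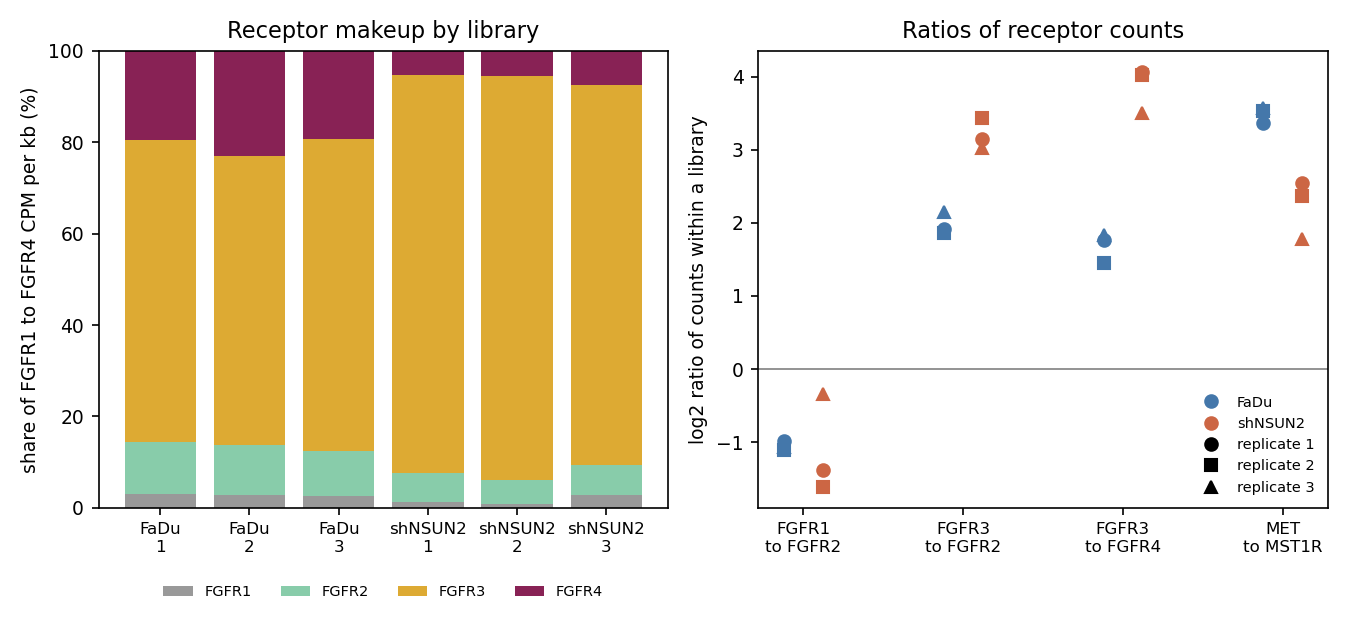
Left, the share of FGFR1 to FGFR4 in their summed CPM per kb in each library, stacked to 100%. Right, log2 ratios of receptor counts within each library, blue for FaDu and orange for shNSUN2, with 1 symbol per replicate number. The FGFR3 share was 63.1% to 68.3% in FaDu and 83.3% to 88.4% in shNSUN2, and MET to MST1R was lower in every shNSUN2 library.

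FGFBP1, the secreted carrier of FGFs, had the smallest adjusted p of the 8. The gene (ENSG00000137440) lies on the reverse strand of chromosome 4 from 15935569 to 15938740. It had 82.0, 88.1 and 76.4 CPM in FaDu and 31.6, 35.7 and 27.6 CPM in shNSUN2. Even the highest shNSUN2 library was under the lowest FaDu library by a wide margin. The shNSUN2 mean of 31.6 ± 4.05 CPM was 38.5% of the FaDu mean of 82.2 ± 5.85 CPM (SD, n = 3), at a log2 fold change of -1.38 (SE 0.14, edgeR adjusted p = 0.0011). All 14 alternative settings called it, at -1.47 to -1.28. Per kilobase it was the most abundant of the 8 in FaDu, at 60.5 ± 4.30 CPM per kb, above MET at 46.0 ± 3.01, whereas in shNSUN2 the libraries of FGFBP1 (23.3 ± 2.98) and MET (31.0 ± 6.16) overlapped.

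Its promoter is printed for its contrast with the GC-rich windows of the receptors (chr4:15938741-15938990, reverse strand, GRCh38.p14, 250 bases before the start, 5′ to 3′).
FGFBP1: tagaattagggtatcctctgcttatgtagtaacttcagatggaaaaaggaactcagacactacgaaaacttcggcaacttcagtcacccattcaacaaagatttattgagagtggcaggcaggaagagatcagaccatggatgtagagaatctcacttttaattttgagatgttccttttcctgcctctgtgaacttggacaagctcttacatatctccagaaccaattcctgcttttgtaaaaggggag
With 40.8% G and C and 2 CpG dinucleotides, it was the poorest of the 7 members with a RefSeq promoter, the other 6 having 68.4% to 86.8%. No letters are in capitals, because none of the 7 motifs searched occurred in this window. FGFR4, which fell with it, had 24 CpG and 7 matches to GGGCGG.

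FGF2, a heparin-binding ligand that leaves cells without a signal peptide, had a lower mean in shNSUN2 and was called in 2 of the 14 alternatives. The gene (ENSG00000138685) lies on the forward strand of chromosome 4 from 122826708 to 122898236. It had 48.0, 53.6 and 44.4 CPM in FaDu and 12.6, 18.7 and 40.2 CPM in shNSUN2. Replicates 1 and 2 of shNSUN2 were far under FaDu, and replicate 3 was just under its lowest library. The log2 fold change was -1.03 (SE 0.39, 95% interval -1.96 to -0.10) and did not pass the test (edgeR adjusted p = 0.116). Without shNSUN2 replicate 3 it was -1.63 (SE 0.19, adjusted p = 0.00321), and DESeq2 on all libraries called it (adjusted p = 0.0224), while without shNSUN2 replicate 1 it was -0.72 (adjusted p = 0.187). Over the 14 alternatives the adjusted p ran from 0.00321 to 0.317. Its longest transcript has 37.5% GC, and with offsets for GC content and length the log2 fold change was -0.84. NUDT6 shares 804 exonic bases with FGF2 on the opposite strand, and had 3.83 ± 0.373 CPM in FaDu and 2.54 ± 0.245 CPM in shNSUN2 (chosen after its values were seen). Strand is unknown, so reads of the shared stretch cannot be told apart.

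MET was abundant and fell by about a factor of 1.48. The gene (ENSG00000105976) lies on the forward strand of chromosome 7 from 116672390 to 116798386. It had 313, 310 and 348 CPM in FaDu and 262, 218 and 175 CPM in shNSUN2. The groups did not overlap, and the shNSUN2 libraries were spread more widely. The mean fell from 324 ± 21.2 to 218 ± 43.3 CPM (SD, n = 3), at a log2 fold change of -0.57 (SE 0.16, edgeR adjusted p = 0.0411). The call was near its limit. It was lost without FaDu replicate 1, 2 or 3 (adjusted p = 0.105, 0.108 and 0.143) and without shNSUN2 replicate 2 (0.0822), and held without shNSUN2 replicate 1 or 3 (0.0322 and 0.0309).

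MST1R rose. The gene (ENSG00000164078) lies on the reverse strand of chromosome 3 from 49887002 to 49903873, and its exons share 327 bases with AC105935.2 and 29 bases with AC105935.1 on the other strand, whose reads there cannot be told apart. It had 30.5, 26.9 and 29.2 CPM in FaDu and 44.7, 42.2 and 50.9 CPM in shNSUN2. Every shNSUN2 library was above every FaDu library. The mean rose from 28.9 ± 1.83 to 45.95 ± 4.48 CPM (SD, n = 3), at a log2 fold change of 0.67 (SE 0.13, edgeR adjusted p = 0.0120). Without FaDu replicate 2 or 3 the adjusted p was 0.0653 and 0.0564, and in the other 12 alternatives the gene was called. The log2 ratio of MET to MST1R counts was 3.36, 3.53 and 3.57 in FaDu and 2.55, 2.37 and 1.78 in shNSUN2, a 2.38-fold shift towards MST1R (exact two-sided permutation p = 0.1, 0.133 adjusted over the 4 ratios). MET still had the higher level per kilobase in shNSUN2, at 31.0 ± 6.16 against 8.75 ± 0.853 CPM per kb.

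The promoter of MST1R is shown as that of the second member that rose (chr3:49903874-49904123, reverse strand, GRCh38.p14, 250 bases before the start, 5′ to 3′, capitals as above).
MST1R: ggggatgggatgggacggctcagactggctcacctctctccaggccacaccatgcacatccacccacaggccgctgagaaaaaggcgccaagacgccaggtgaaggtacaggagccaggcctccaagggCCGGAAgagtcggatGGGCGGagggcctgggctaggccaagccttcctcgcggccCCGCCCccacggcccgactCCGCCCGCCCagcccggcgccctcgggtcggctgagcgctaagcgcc
It held GGGCGG 4 times, 2 of the matches overlapping each other, and CCGGAA once, at 121 bases before the start. It had 70.8% G and C and 20 CpG, near the MET window with 68.4% and 24 CpG, where GGGCGG occurred 2 times.

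RNA of most FGF genes outside the members was scarce, and so was that of the MET and MST1R ligands. Of 21 other FGF genes 17 had any count and 8 were tested, 1 called higher and 1 lower, with a median log2 fold change of -0.90 against -0.0069 over all 19081 genes. FGF19, the hormone-like ligand of FGFR4, had 7.49, 8.99 and 10.6 CPM in FaDu and 0.857, 1.26 and 0.504 CPM in shNSUN2. Every shNSUN2 library was far below every FaDu library, at a log2 fold change of -3.37 (SE 0.34, edgeR adjusted p = 0.00111). Its co-receptor KLB (beta-klotho) had 0 to 4 counts per library and was not tested, and KL was at 0 throughout. FGF1, which binds all FGF receptors, was listed at 4, 0 and 0 counts in FaDu and 48, 59 and 53 in shNSUN2, so no fold is given (edgeR adjusted p = 0.0119). FGF7 and FGF10, the stromal ligands of the epithelial form of FGFR2, had 0 to 4 counts and 0 counts per library. HGF, the ligand of MET, was listed at 0 in all 6 libraries, and MST1, the ligand of MST1R, had 1.67 ± 0.840 CPM in FaDu and 1.35 ± 0.335 CPM in shNSUN2 (edgeR adjusted p = 0.639). KLB, KL, FGF7, FGF10, HGF and MST1 are named for their role as partners of the members and after their values were seen. Without shNSUN2 replicate 1, 2 of these FGF genes were called lower.

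Among 10 FGF co-receptors and binding proteins, 6 were tested, 2 fell and none rose, with a median log2 fold change of -0.88. FLRT2, a membrane protein known to bind FGF receptors, fell from 7.08 ± 0.433 to 1.47 ± 0.289 CPM (SD, n = 3; edgeR adjusted p = 0.000892). FGFRL1, a receptor that lacks the kinase domain, fell from 20.2 ± 0.533 to 14.2 ± 1.67 CPM (adjusted p = 0.0406), a call lost on leaving out any FaDu library or shNSUN2 replicate 1 or 2 (adjusted p = 0.09 to 0.142). Of 33 heparan sulfate proteoglycans and enzymes that build or trim the sugar chains, 25 were tested, 2 rose and 5 fell, with a median of -0.12. The syndecan SDC3 fell from 12.9 ± 1.62 to 1.94 ± 0.337 CPM and the glypican GPC2 from 3.03 ± 0.289 to 0.976 ± 0.0837 CPM (adjusted p = 0.00047 and 0.00346). Without FaDu replicate 1, 2 or 3 none rose, and 3, 3 and 4 fell, where 7.9%, 6.76% and 6.88% of all tested genes were called. Without shNSUN2 replicate 1, 1 rose and 4 fell.

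**Figure D4:**
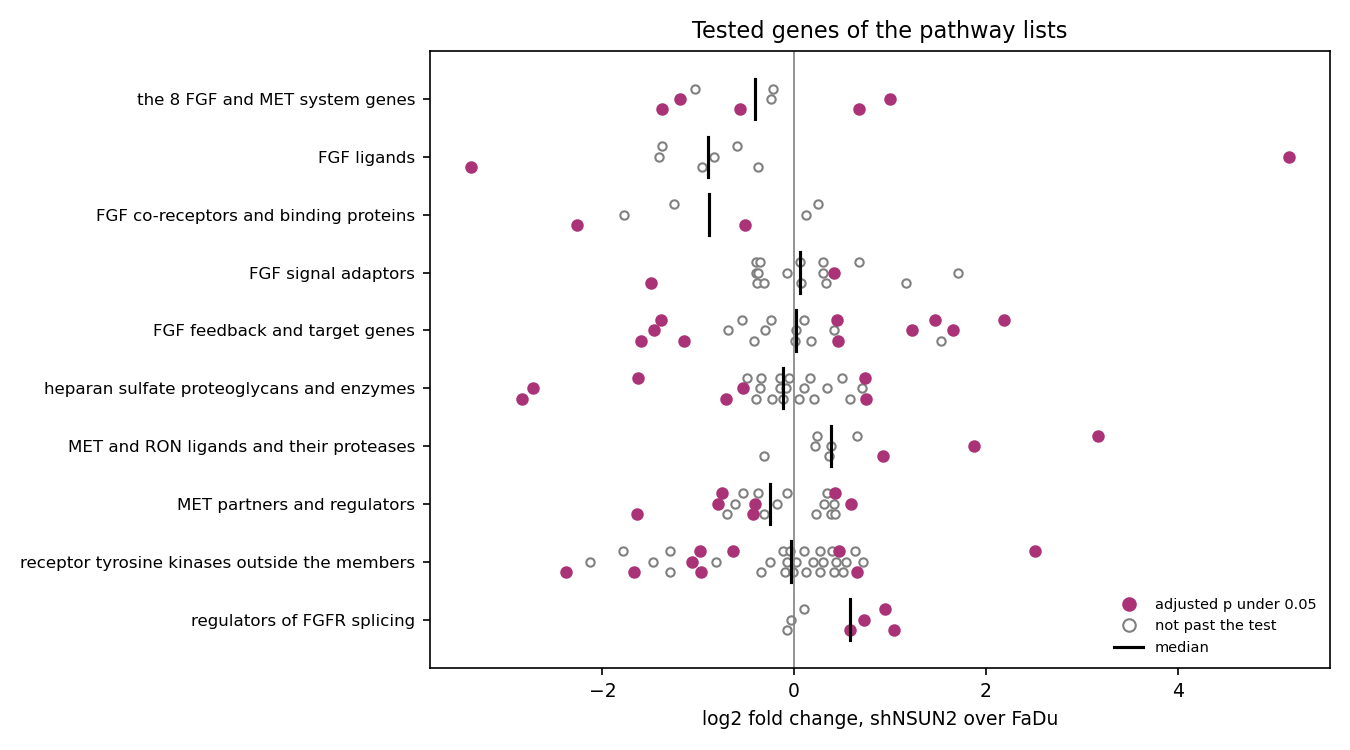
Log2 fold change, shNSUN2 over FaDu, of each tested gene of the 8 members and the 9 pathway lists. Filled points had an adjusted p under 0.05, open points did not, the black bar is the list's median, and the vertical offset of points carries no meaning. Adaptors and feedback genes scatter on both sides of 0, while the 3 called genes among MET and RON proteases all rose.

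Of 17 adaptors that carry the receptors' signal, all were tested, 1 rose and 1 fell, with a median log2 fold change of 0.06. STAT3, a transcription factor that tyrosine kinases activate, fell from 154 ± 3.66 to 54.9 ± 4.37 CPM (SD, n = 3; edgeR adjusted p = 0.000515). PLCG1, the phospholipase that binds activated FGF receptors, rose by 0.42 (SE 0.12, adjusted p = 0.0464), a call lost without FaDu replicate 1, 2 or 3 (0.146, 0.181 and 0.132) or shNSUN2 replicate 1 (0.0899). Without shNSUN2 replicate 2 or 3, 2 adaptors fell. Feedback and target genes of the FGF-ERK pathway split. Of 21, all tested, 6 rose and 4 fell, with a median of 0.02. DUSP5, a nuclear phosphatase of ERK, rose from 48.3 ± 2.85 to 220 ± 24.2 CPM, and the immediate early factor EGR1 fell from 149 ± 19.7 to 49.3 ± 3.82 CPM (adjusted p = 0.000256 and 0.000628). Without FaDu replicate 1, 2 or 3, 4 feedback genes rose each time, and 3, 2 and 3 fell. Those fits called 7.9%, 6.76% and 6.88% of all tested genes.

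On the MET and MST1R side, the calls among ligands and the proteases that activate them were all higher. Of 14 ligands, proteases and inhibitors, 9 were tested, 3 rose, and no decrease was called. Their median log2 fold change was 0.38, and 3 also rose in each fit without 1 library. PLAT, the tissue plasminogen activator, rose from 17.1 ± 1.46 to 62.9 ± 6.37 CPM and the membrane protease TMPRSS2 from 0.730 ± 0.192 to 6.58 ± 0.421 CPM (SD, n = 3; edgeR adjusted p = 0.000461 and 0.000515). TMPRSS2 is also among the prostate markers given above, and the part of those markers in its rise was not tested. ST14 (matriptase), an activator of pro-HGF and pro-MSP chosen after its values were seen, rose from 172 ± 7.86 to 326 ± 46.1 CPM (adjusted p = 0.00363). Its membrane inhibitors SPINT1 and SPINT2, likewise chosen, had log2 fold changes of 0.38 and 0.37 (adjusted p = 0.267 and 0.125). Of 21 partners and regulators of MET, 20 were tested, 2 rose and 5 fell, with a median of -0.25. The adaptor GRB10 fell from 45.8 ± 3.28 to 14.7 ± 3.43 CPM and CD44, a co-receptor of MET, from 126 ± 5.32 to 74.9 ± 8.80 CPM (adjusted p = 0.00167 and 0.00737). Without FaDu replicate 1, 2 or 3 none of the partners rose and 2 fell each time. Those fits called 7.9%, 6.76% and 6.88% of all tested genes. Without shNSUN2 replicate 1, 1 rose and 2 fell, and without shNSUN2 replicate 3, 4 rose and 4 fell.

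Of 52 other receptor tyrosine kinases, 36 were tested, 3 rose and 6 fell, with a median log2 fold change of -0.03. AXL fell from 28.3 ± 1.65 to 8.88 ± 1.88 CPM, and its relative MERTK rose from 1.11 ± 0.410 to 6.34 ± 1.00 CPM (SD, n = 3; edgeR adjusted p = 0.00164 and 0.00204). The calls were 2 higher and 4, 4 and 3 lower without FaDu replicate 1, 2 or 3, and 5 higher and 7 lower without shNSUN2 replicate 3. Of all tested genes, those fits called 7.9%, 6.76%, 6.88% and 21.5%.

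The splice choice that sets ligand binding of FGFR1 to FGFR3 is made by known splicing regulators. All 7 were tested, 4 were higher and no decrease was called, at a median log2 fold change of 0.58. PTBP1 rose from 172 ± 8.83 to 331 ± 35.4 CPM and HNRNPM from 175 ± 15.9 to 359 ± 54.1 CPM (SD, n = 3; edgeR adjusted p = 0.0025 and 0.0032). ESRP1, the epithelial splicing factor that favours the epithelial form of FGFR2, was at 235 ± 5.05 and 224 ± 16.4 CPM (adjusted p = 0.680). Its relative ESRP2 rose from 34.95 ± 1.98 to 52.2 ± 8.31 CPM (adjusted p = 0.0299), a call lost without FaDu replicate 1, 2 or 3 (0.0842, 0.108 and 0.125) or shNSUN2 replicate 1 (0.0625). Both were chosen after their values were seen. The 4 higher calls were 3, 2 and 2 without FaDu replicate 1, 2 or 3, where 7.9%, 6.76% and 6.88% of all tested genes were called. Gene counts do not show which form of a receptor was made.

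Genes whose profile over the 6 libraries was most like that of a member were looked up for the 2 members of smallest adjusted p, by Pearson's r of log2(CPM + 0.5) among 11218 other genes of at least 5 CPM. For FGFBP1 they were KCTD12 (r = 0.9991) and LINC00472 (r = 0.9984), and for FGFR4 SNX29 and KTN1-AS1 (r = 0.9982 for both). With 2 groups of 3 libraries, the points share their libraries and the difference between groups, so these values are a description. KTN1-AS1 is an antisense RNA, and without strand its reads in any stretch shared with another gene cannot be told apart.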

How the data were processed

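Estimated counts per gene were used as the authors deposited them, 1 table of 58825 Ensembl identifiers and 6 columns, each matched to a sample by its title. Per the submitters' processing notes the tools were HISAT2 2.0, StringTie 1.3.0 and Bowtie 0.12.2. The only build in the notes is mouse mm8, although the identifiers are human. The human build is not given in the sources used here. In the deposited table, values are whole numbers in which 4 is 3.25 to 3.81 times as common as the mean of 3 and 5, so low values are coarse and no counting intervals are given. Totals were 53612358 to 72788971 units. Positions, exon lengths and GC came from GENCODE 29, and 58552 identifiers matched. Strand was taken as unknown, so overlapping genes cannot be told apart.

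Genes were tested in edgeR 4.0.16 (glmQLFit, robust, TMM, filterByExpr with minimum count 10 and minimum total 15, group alone, two-sided). SE is the log2 fold change divided by the square root of F. Alternatives were DESeq2 1.42.0, other scalings, no filter, counts divided by 4, a block, GC and length offsets, and each library left out. The procedure was tested on simulated counts of 19081 genes, with 50 genes changed at each size. Of genes changed by 0.5, 1, 2 and 3 on the log2 scale, it called 0.4%, 31.6%, 71.2% and 80.4%. Far fewer genes were changed in the simulation than were called in the data (18.5%), which makes the adjusted threshold stricter there. The simulated shares are therefore not the shares recovered in these data. A gene that did not pass the test may still have changed. The members and lists were chosen with earlier results of these data known. Named genes are the members, NSUN2, the 2 called genes of smallest adjusted p in each of 9 lists, and the 2 most similar genes for each of 2 members. Outside that rule, partners, overlapping or neighbouring genes and further list genes (LETM2, NUDT6, AC087623.1, AC105935.1, AC105935.2, KLB, KL, FGF7, FGF10, HGF, MST1, ST14, SPINT1, SPINT2, ESRP1, ESRP2, CCND1, FGF3 and FGF4) were named after their values were seen. Promoters (7 of 8 members matched) are from RefSeq on GRCh38.p14.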

Additional observations from a re-analysis of the deposited data

How the results depend on the processing

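The directions of FGFR2, FGFR3, FGFR4, FGF2, FGFBP1, MET and MST1R were the same in all 14 alternatives. FGFR3, FGFR4 and FGFBP1 were called in every one. With single libraries left out, FGFR1 ran from -0.63 to 0.0057, FGF2 from -1.63 to -0.72, MET from -0.71 to -0.43 and MST1R from 0.59 to 0.73 on the log2 scale. FGF2 was called by DESeq2 at -1.03. The log2 ratio of FGFR1 to FGFR2 differed between groups by -0.45 to 0.19 in the same fits, and MST1, at -0.31, ran from -0.62 to 0.12 with 1 library left out. The cause was not tested. Over all genes, the 1629 higher and 1903 lower calls became 478 to 2090 and 861 to 2181 with 1 library left out, with fewer samples in each fit. Upper-quartile scaling gave 1258 higher and 2213 lower. The 22 higher and 24 lower calls in the 9 pathway lists became 12 to 26 and 14 to 27 with 1 library left out. The labels do not say whether replicate numbers pair the libraries. Deviations of same-numbered libraries correlated at -0.0364, 0.0235 and 0.00744 over 19081 genes, and not every library correlated best with its own number. With 3 libraries a group, such values cannot show whether the libraries were prepared in pairs. With the replicate block, 969 genes were called higher and 1401 lower, and MET was at -0.58 (adjusted p = 0.0692). FGFRL1, PLCG1 and ESRP2 were not called with the block either (adjusted p = 0.0862, 0.0989 and 0.0691). The number of libraries, 3 a group, limits the precision, and the coarse steps of the counts limit genes near 1 CPM.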

Other observations

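FGF19, FGF4 and FGF3 lie side by side on chromosome 11 (GRCh38), from 69698232 to 69704642, 69771016 to 69775403 and 69809969 to 69819024, just beyond the cell cycle gene CCND1 at 69641087 to 69654474. CCND1 went the other way from FGF19, FGF4 and FGF3, whose means were all lower in shNSUN2. CCND1 rose from 682 ± 27.5 to 1889 ± 400.2 CPM (SD, n = 3; log2 fold change 1.47, SE 0.16, edgeR adjusted p = 0.00165). FGF19, which starts 43.8 kb beyond the end of CCND1, fell from 9.04 ± 1.58 to 0.874 ± 0.380 CPM. FGF4 had 3.47 ± 0.784 and 2.68 ± 0.672 CPM (adjusted p = 0.382) and FGF3 had 0.991 ± 0.0820 and 0.378 ± 0.197 CPM (adjusted p = 0.0680), neither past the test. FGF3 was called by DESeq2 (adjusted p = 0.0377), with counts divided by 4 (0.0450) and without shNSUN2 replicate 1 (0.0449). CCND1, FGF4 and FGF3 were picked for their position after their values were seen.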
